A study of Homo sapiens with 6 samples.

Results

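The ABC transporter genes of the A, B, C and G subfamilies were compared between HepG2 cells that carried a hairpin against LINC01977 (sh-LINC01977, here also knockdown) and HepG2 cells that carried a control hairpin (sh-NC, here also control). HepG2 is an established human liver cancer cell line. The members were all rows of the deposited table named ABCA, ABCB, ABCC or ABCG followed by digits only, without ABCA2 and ABCB9, which gave 31 of the 29153 listed genes. RNA was sequenced from 3 libraries per group, each collected 72 h after lentiviral infection, and nothing in the labels says whether the libraries of a group came from separate cultures, so that P values measure the spread between these libraries, which may be technical. Both groups were infected with lentivirus and, per the methods of the study, selected with puromycin. The knockdown libraries carry 1 label for the hairpin, so no second hairpin was compared.

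ABC (ATP-binding cassette) transporters use the energy of ATP to move substrates across membranes. In liver cells, members of the B, C and G subfamilies pump bile salts, conjugates and drugs out of the cell, either into bile across the canalicular membrane or back to blood across the basolateral membrane. ABCA1, ABCG5 and ABCG8 export sterols and phospholipids, and a small set of B subfamily members sits in mitochondria, where some are linked to porphyrins and heme.

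The total counts per library were between 49929024 and 60441515, and the ABC genes together held between 0.151% and 0.162% of them. LINC01977 itself was counted 4, 0 and 16 times in control libraries and 0, 0 and 4 times after knockdown. At this depth its reduction was not detectable, and in these data the groups rest on the labels. The study reported that it checked the knockdown in its HepG2 cells by qRT-PCR, and whether on these RNA samples is not given. Of 10 hepatocyte and HepG2 markers, all were detected. Their summed level was between 5341 and 5746 FPKM in control libraries and between 3921 and 3967 FPKM after knockdown. Of the 10, 7 fell, 0 rose and 3 did not pass the test, while 8.07% of all tested genes fell by the same test. Markers of fibroblasts summed to at most 0.0403 FPKM and markers of endothelial cells to at most 0.441 FPKM in any library. The leukocyte markers summed to between 10.5 and 16.5 FPKM, mainly through CD68, a lysosomal protein. CD14 was also detected, with a mean of 0.876 FPKM, while the defining marker PTPRC had a mean of 0.0011 FPKM and CD3E was not listed. The part that the lower hepatocyte markers have in the values below was not tested. In bulk RNA of a single cell line, fewer cells with these markers and less of their RNA per cell cannot be told apart.

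The ABC genes covered a wide range of levels, and 1 of them dominated. Levels of different genes are compared as FPKM, which is scaled to transcript length. ABCC2, the canalicular pump for bilirubin glucuronide and other conjugates, had 80.7, 82.0 and 85.6 FPKM in control libraries and 83.6, 82.4 and 93.3 FPKM after knockdown. This gene alone made up between 42.6% and 46.5% of the summed FPKM of all 31 members, which was between 186 and 201 FPKM per library. ABCC1, a broad exporter of glutathione conjugates, came next with 20.3 ± 3.1 FPKM (SD, n = 3) in sh-NC cells and 22.4 ± 1.7 FPKM (SD, n = 3) in sh-LINC01977 cells. ABCC2 lay above ABCC1, and ABCC1 above all other members, in each of the 6 libraries.

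Below this pair the levels lay close together. ABCC3, ABCB6 and ABCB10 had means of 10.4, 10.2 and 9.20 FPKM over the 6 libraries, and their library values overlapped. ABCB1 and ABCC6 lay lower, with 7.998 and 6.93 FPKM, again with overlapping values. From ABCA1 at 5.36 FPKM down to ABCA4 at 0.550 FPKM, the levels of members above the filter formed a gradual slope. By subfamily, the C members held between 69.3% and 71.6% of the summed FPKM, the B members between 18.9% and 21.3%, the G members between 4.90% and 5.32% and the A members between 4.29% and 4.84%.

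**Figure D1:**
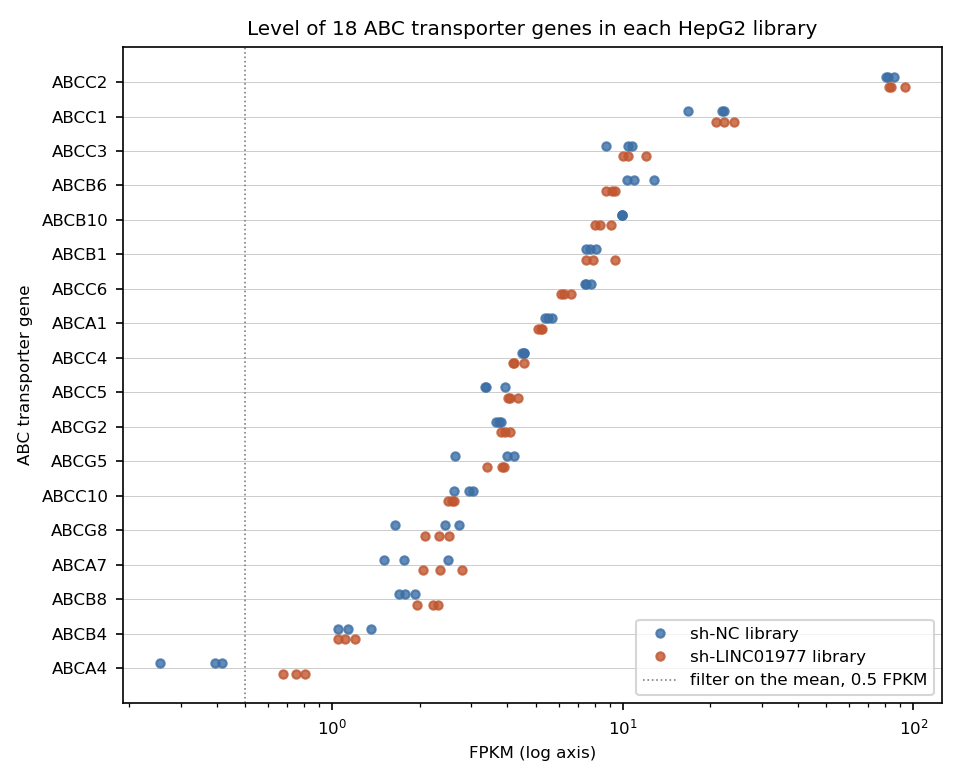
FPKM (log axis) of 18 of the 19 ABC transporter genes with a mean of at least 0.5 FPKM, ordered by mean, with 1 point per library (3 sh-NC and 3 sh-LINC01977). ABCC2 stands above all other members at 80.7 to 93.3 FPKM, and ABCA4 is the only gene whose sh-NC points all lie under the filter while its sh-LINC01977 points all lie above it.

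Of the 31 members, 19 passed the filter of a mean of at least 0.5 FPKM over the 6 libraries and were tested with all 13452 genes that passed. The other 12 members had means of at most 0.438 FPKM, and 6 of them averaged at most 10 counts per library. They included the main bile salt pump of hepatocytes and a cholesterol exporter. ABCB11, the bile salt export pump of the canalicular membrane, was counted 0, 0 and 0 times in control libraries and 0, 0 and 8 after knockdown. ABCG1, which exports cholesterol from macrophages and other cells, was counted 12, 9 and 12 times in control libraries and 20, 8 and 6 after knockdown. ABCA13 was at 0 in all sh-NC libraries and was counted 4, 8 and 0 times after knockdown, and ABCA9 was at 0 in all sh-LINC01977 libraries and was counted 0, 4 and 0 times in the controls. In an edgeR fit of all listed genes, 0 of these 12 members had an adjusted p under 0.05 and 0 had an unadjusted p under 0.05. For 3 of them the 95% interval of the log2 fold change lay within a 2-fold change either way, from -0.44 to 0.35 for ABCA5, -0.65 to 0.57 for ABCC11 and -0.73 to 0.57 for ABCA3. For the other 9 the interval reached past 2-fold, and a change of that size was not detectable at this depth. On chromosome 17, ABCA5, ABCA6, ABCA8, ABCA9 and ABCA10 lie next to each other on the minus strand, between 68867292 and 69327244 (hg38). ABCA5, a lysosomal lipid transporter, had 0.435 ± 0.071 FPKM in sh-NC cells and 0.441 ± 0.067 FPKM in sh-LINC01977 cells (SD, n = 3 each), while its 4 neighbours had means of at most 0.0161 FPKM.

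Some ABC genes differed between knockdown libraries and control libraries, at a share near that of all tested genes. By the quasi-likelihood test of edgeR, adjusted by Benjamini-Hochberg over all tested genes, and at an adjusted p under 0.05, 4 of the 19 tested members were called, of which ABCC6, ABCB6 and ABCB10 fell and ABCA4 rose. This is 21.1% of the tested members, beside a background of 15.1% of all tested genes, so the share called was near that of other genes. ABCA4 passed the filter only through the group in which it was higher, and without it 3 of 18 members, or 16.7%, were called. Over all tested genes, 7.05% were called higher and 8.07% lower. The median log2 fold change was -0.0022 over the 19 members and -0.0010 over all tested genes, and the median of its absolute size was 0.15 in members and 0.18 in all tested genes. Of the 19, 0 passed the thresholds of the study, a fold change of at least 2 with an unadjusted P of at most 0.05, in edgeR or in DESeq2, where the background was 2.6% in edgeR. In edgeR ABCA4 passed them with scaling by library totals, and without sh-NC library 1, sh-NC library 3 or sh-LINC01977 library 2. Of the 19, 7 had an unadjusted p under 0.05 in edgeR. Such p values were common over all tested genes, since a p of 0.0490 in this edgeR fit (ATG9A) had an adjusted p of 0.162. Their share was not counted, and the 7 are not read as a result about the members. The groups did not overlap for 7 of the 19, or 36.8%, beside a background of 37.1%. With counts scaled to library totals in place of TMM factors, ABCC6 was the only member called lower and ABCA4 the only one called higher, and over all genes 1455 were then higher and 768 lower, against 948 and 1085 with TMM.

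**Figure D2:**
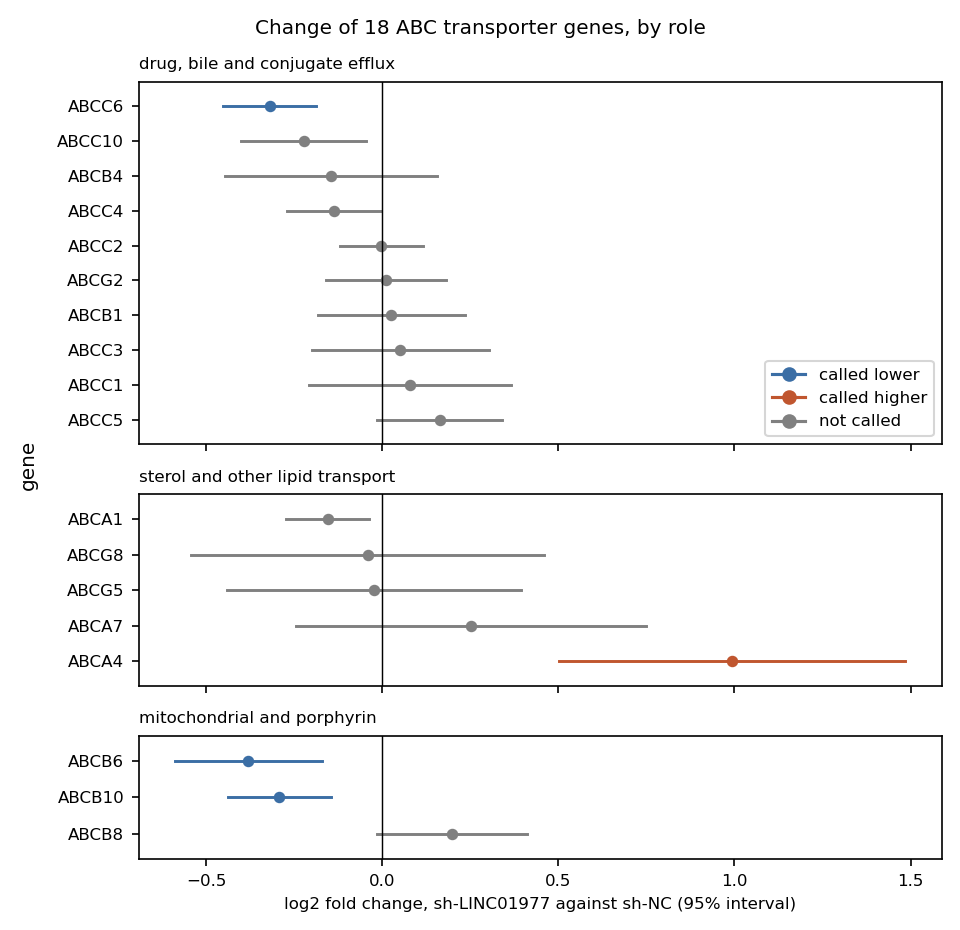
Log2 fold change (sh-LINC01977 against sh-NC, 3 libraries each) of 18 of the 19 tested ABC transporter genes by role, with 95% intervals from edgeR's quasi-likelihood fit. ABCC6, ABCB6 and ABCB10 (blue) were called lower, ABCA4 (orange) was called higher, and the drug pumps ABCC2, ABCG2 and ABCB1 sit close to 0.

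ABCC6 is the only member that was called under every setting tried. It encodes a basolateral transporter of liver and kidney whose activity releases ATP from the cell and whose loss causes pseudoxanthoma elasticum, a calcification disorder. The gene lies on chromosome 16, 16148928 to 16223522 on the minus strand (ENSG00000091262). Each gene is followed across libraries in CPM, its counts relative to the total of the tested genes after TMM scaling. ABCC6 had 72.0, 73.8 and 70.1 CPM in control libraries and 60.3, 56.5 and 56.1 CPM after knockdown. All 3 knockdown libraries were below all 3 control libraries, and the libraries of a group lay close to each other. The fitted log2 fold change was -0.32 ± 0.055 (standard error, edgeR, adjusted p = 0.0122), a change of -19.8% with a 95% interval from -26.9% to -12.1%. The exact two-sided permutation test gave p = 0.1, the smallest possible for 3 libraries in each group. Leaving out any library kept its adjusted p in edgeR between 0.0240 and 0.0484.

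ABCC6 has partial near-identical copies elsewhere on chromosome 16, and reads can be shared among them. ABCC6P1 had 38.8 ± 0.7 CPM in sh-NC cells and 32.5 ± 1.0 CPM in sh-LINC01977 cells (SD, n = 3 each), which is -0.26 on the log2 scale (edgeR, adjusted p = 0.0287). ABCC6P2 had a log2 fold change of -0.78 with a standard error of 0.37 and an adjusted p of 0.213 from edgeR. How many of the reads given to ABCC6 came from its copies was not tested. ABCC6 also overlaps AC136624.2 on the opposite strand, which had at most 14 counts in any library. ABCC1, which lies beside ABCC6 on chromosome 16 at 15949577 to 16143074, had 215, 208 and 159 CPM in control libraries and 221, 194 and 200 CPM after knockdown. Its groups overlapped, and the log2 fold change was 0.079 (95% interval -0.21 to 0.36). Without sh-NC library 3, the lowest of the 6, its log2 fold change was -0.044.

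All 4 mitochondrial or porphyrin transporters were tested, of which ABCB6 and ABCB10 fell, 0 rose and 2 were not called. Over all tested genes 8.07% were called lower, and 2 calls among 4 genes say little about this role. ABCB6 transports porphyrins and is found in the outer mitochondrial membrane and in other membranes of the cell (chromosome 2, 219209768 to 219218990, minus strand). Its level was 68.7, 83.5 and 71.1 CPM in control libraries and 54.8, 59.9 and 56.9 CPM after knockdown. The groups did not overlap, and the second sh-NC library stood above the other two. The fitted log2 fold change was -0.38 ± 0.087 (standard error, edgeR, adjusted p = 0.0315), a change of -23.1% with a 95% interval from -33.5% to -11.2%. Nearly all of ABCB6 lies within ATG9A on the same strand, so that reads of the pair may not be told apart. ATG9A had 115 ± 12 CPM in sh-NC cells and 98.3 ± 7.6 CPM in sh-LINC01977 cells (SD, n = 3 each), which is -0.22 on the log2 scale (edgeR, adjusted p = 0.162).

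ABCB10 is a transporter of the inner mitochondrial membrane that is linked to heme synthesis (chromosome 1, 229516582 to 229558695, minus strand). It had 53.9, 53.1 and 52.7 CPM in control libraries and 41.0, 43.5 and 45.9 CPM after knockdown. The control libraries were nearly equal and all lay above the knockdown libraries. The fitted log2 fold change was -0.29 ± 0.061 (standard error, edgeR, adjusted p = 0.0231), a change of -18.3% with a 95% interval from -26.2% to -9.63%. ABCB8, another mitochondrial member, did not pass the test and had 21.3, 22.6 and 19.98 CPM in control libraries and 26.1, 22.5 and 24.8 CPM after knockdown (log2 fold change 0.20, 95% interval -0.016 to 0.41, edgeR, adjusted p = 0.191). Of the genes that work with ABCB10, the mitochondrial iron importer SLC25A37 and the ferrochelatase gene FECH did not pass the test, with log2 fold changes of 0.11 and 0.043.

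The calls of ABCB6 and ABCB10 were lost when most single libraries were left out and with another scaling. With a library left out, the log2 fold change stayed between -0.43 and -0.29 for ABCB6 and between -0.33 and -0.25 for ABCB10, and over all genes between 1176 and 1398 were then called, against 2033 with all libraries. The adjusted p of ABCB6 in edgeR rose above 0.05 without sh-NC library 2 or 3 (0.0538 and 0.0572) and without sh-LINC01977 library 1, 2 or 3 (0.0935, 0.0658 and 0.0879). That of ABCB10 rose above 0.05 without sh-NC library 1, 2 or 3 (0.0734, 0.0652 and 0.0611) and without sh-LINC01977 library 1 or 2 (0.0627 and 0.0725). With scaling by library totals, the adjusted p was 0.0567 for ABCB6 and 0.0608 for ABCB10, with log2 fold changes of -0.31 and -0.23.

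ABCA4 rose. It encodes the retinoid transporter of photoreceptor cells and is known mainly from the retina (chromosome 1, 93992835 to 94121132, minus strand). Its counts were 227, 132 and 253 in control libraries and 442, 415 and 379 after knockdown, which are 4.17, 2.68 and 4.30 CPM and 8.03, 6.82 and 7.36 CPM. All knockdown libraries were above all control libraries, and the second sh-NC library was the lowest. The fitted log2 fold change was 0.99 ± 0.21 (standard error, edgeR, adjusted p = 0.0224), a 1.99-fold change close to the 2-fold threshold of the study. Over the alternatives the log2 fold change was between 0.36, with limma on log2(FPKM + 1), a scale that understates changes of low genes, and 1.11, without sh-NC library 3, and it was 1.06 with scaling by library totals. In FPKM the gene had 0.356 ± 0.088 in sh-NC cells and 0.744 ± 0.065 in sh-LINC01977 cells (SD, n = 3 each), so it passed the filter only through the group in which it was higher. Without sh-LINC01977 library 1, 2 or 3, its adjusted p in edgeR was 0.0744, 0.0570 and 0.0635.

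**Figure D3:**
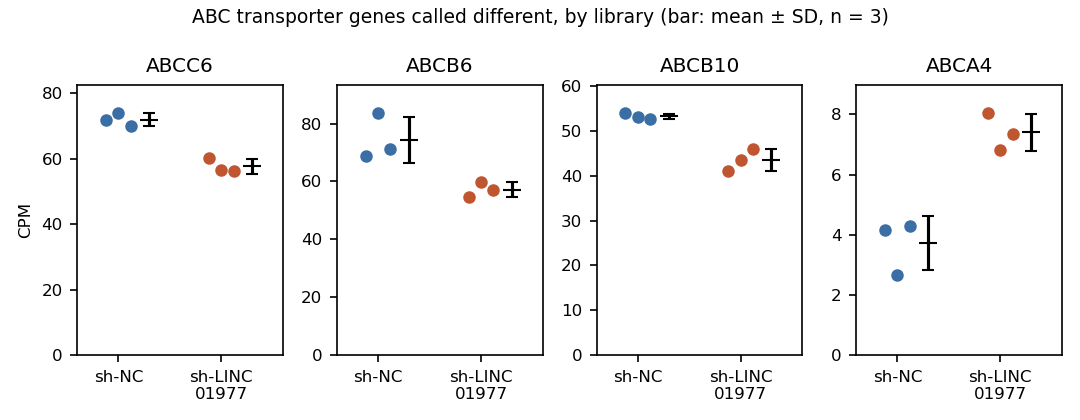
CPM (linear axis from 0) of ABCC6, ABCB6, ABCB10 and ABCA4 in each of the 3 sh-NC and 3 sh-LINC01977 libraries, with the mean and SD of each group beside the points. The groups do not overlap in any of the 4 panels, and the fitted changes are -19.8%, -23.1% and -18.3% for the 3 lower genes and 1.99-fold for ABCA4.

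The sequence just before the start of the 3 genes that fell is shown because these genes fell in the same comparison. Each is the 250 bases before the RefSeq start (GRCh38.p14), 5′ to 3′ on the strand of the gene, with capitals for GC boxes (GGGCGG) and CCAAT boxes (CCAAT) on either strand. The ABCC6 window is chr16:16223495-16223744, the ABCB10 window chr1:229558708-229558957 and the ABCB6 window chr2:219218959-219219208, all on the minus strand.
ABCC6: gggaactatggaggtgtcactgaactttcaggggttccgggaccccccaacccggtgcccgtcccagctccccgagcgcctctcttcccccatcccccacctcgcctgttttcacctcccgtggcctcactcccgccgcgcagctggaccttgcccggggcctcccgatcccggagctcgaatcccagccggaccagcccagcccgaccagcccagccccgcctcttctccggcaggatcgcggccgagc
ABCB10: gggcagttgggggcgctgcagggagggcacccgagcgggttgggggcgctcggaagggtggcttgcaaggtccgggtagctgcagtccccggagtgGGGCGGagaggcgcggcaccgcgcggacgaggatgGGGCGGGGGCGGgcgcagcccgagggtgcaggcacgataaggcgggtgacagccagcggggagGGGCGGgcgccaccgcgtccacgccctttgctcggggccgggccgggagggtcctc
ABCB6: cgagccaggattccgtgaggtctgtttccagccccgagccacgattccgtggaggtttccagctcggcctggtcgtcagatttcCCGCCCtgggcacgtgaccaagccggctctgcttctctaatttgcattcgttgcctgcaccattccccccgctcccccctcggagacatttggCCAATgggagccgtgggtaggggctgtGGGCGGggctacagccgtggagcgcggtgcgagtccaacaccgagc
All 3 windows were rich in G and C, at 70.8% in ABCC6, 77.2% in ABCB10 and 64.4% in ABCB6, but they did not share these motifs. The ABCB10 window held 4 GC boxes, 2 of them side by side, the ABCB6 window 2 GC boxes and 1 CCAAT box, and the ABCC6 window 0 of either. Of the 35116 windows of this length in the RefSeq table, several of which can belong to 1 gene, 42.6% held a GC box and 32.0% a CCAAT box. Of the 14 tested members with a window, 6 held a GC box and 3 a CCAAT box. An exact nuclear receptor half-site (AGGTCA) was in 0 of the 14 and in 12.1% of all windows, and a TATA box (TATAAA) was in 4 of the 14 and in 10.7% of all windows. An E-box (CACGTG) was in 3 of the 14 and in 6.3% of all windows. A match is a description of these letters only.

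The pumps that carry drugs and bile out of the cell did not pass the test apart from ABCC6. Of 12 members in this role, 10 were tested, of which 1 fell, 0 rose and 9 were not called, with a median log2 fold change of 0.0046. Over all tested genes 15.1% were called, so 1 of 10 says little about this role. ABCC2 had 641, 640 and 666 CPM in control libraries and 628, 627 and 690 CPM after knockdown. The groups overlapped, and the log2 fold change of -0.0022 had a 95% interval from -0.12 to 0.12, which is from -7.96% to 8.32%. The sign of this value changed with scaling by library totals, where it was 0.064. ABCB1, the multidrug pump P-glycoprotein, had 57.0, 54.3 and 58.7 CPM in control libraries and 55.3, 53.0 and 64.8 CPM after knockdown, with an interval of the change from -11.9% to 17.6%. It overlaps RUNDC3B on the opposite strand, and whether the counting used strand is not given in the sources used here. ABCG2, the breast cancer resistance protein, had 23.2, 23.2 and 22.2 CPM in control libraries and 22.3, 24.2 and 22.7 CPM after knockdown, with an interval from -10.4% to 13.4%. For ABCC2, ABCB1 and ABCG2 the fitted change of ABCC6, -19.8%, lies below the lower end of the interval, although no difference between genes was tested.

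The other efflux members were estimated less closely or lay nearer to the threshold. ABCC3, a basolateral exporter of conjugates, stood at 0.051 on the log2 scale, with a 95% interval from -0.20 to 0.30. ABCB4, the canalicular phospholipid flippase, lies next to ABCB1 on chromosome 7 and had 11.2 ± 1.5 CPM in sh-NC cells and 10.1 ± 0.6 CPM in sh-LINC01977 cells (SD, n = 3 each), with a log2 fold change of -0.15 and an interval from -0.45 to 0.16. ABCC4, a basolateral exporter of cyclic nucleotides and bile acids, had 45.6, 44.9 and 44.1 CPM in control libraries and 39.5, 40.3 and 42.5 CPM after knockdown, groups that did not overlap (log2 fold change -0.14, edgeR, adjusted p = 0.152). ABCC10 had 27.1, 30.8 and 30.0 CPM in control libraries and 25.7, 24.8 and 24.8 CPM after knockdown, which also did not overlap, and the gene overlaps DLK2 on the opposite strand (log2 fold change -0.22, edgeR, adjusted p = 0.0957). ABCC5, which exports cyclic nucleotides, stood at 0.16 on the log2 scale, with a 95% interval from -0.014 to 0.34.

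Among the sterol and lipid transporters, 5 of 14 members were tested, and ABCA4 was the only one called, beside 15.1% of all tested genes. ABCA1, which loads cholesterol and phospholipid onto apolipoprotein A-I, was the member nearest to the threshold on the side not called. It had 77.8, 81.1 and 78.1 CPM in control libraries and 71.8, 72.2 and 68.9 CPM after knockdown, so that the groups did not overlap. Its fitted log2 fold change was -0.16 ± 0.050 (standard error, edgeR, adjusted p = 0.0867), a change of -10.2% with an interval from -17.3% to -2.48%. APOA1, the acceptor of this lipid and also 1 of the hepatocyte markers above, fell by 0.74 on the log2 scale (edgeR, adjusted p = 0.00113), and APOE by 0.33 (edgeR, adjusted p = 0.00440). ABCA7, a phospholipid transporter, had 19.01, 26.4 and 15.8 CPM in control libraries and 28.3, 24.2 and 20.4 CPM after knockdown, and its spread between libraries left an interval of the log2 fold change from -0.24 to 0.75.

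ABCG5 and ABCG8 encode the subunits of a single sterol exporter and start head to head on chromosome 2. The 131 bases between their RefSeq starts, chr2:43838840-43838970 on the plus strand (GRCh38.p14), are shown because both genes are read outward from them. None of the GC box, CCAAT box, TATA box or half-site letters above is in this stretch, so it has no capitals.
ABCG5-ABCG8: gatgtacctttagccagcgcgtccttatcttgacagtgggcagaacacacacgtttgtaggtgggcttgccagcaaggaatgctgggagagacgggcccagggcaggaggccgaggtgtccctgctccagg
ABCG5 had 12.5, 18.6 and 19.6 CPM in control libraries and 17.2, 15.5 and 17.2 CPM after knockdown. ABCG8 had 9.31, 8.13 and 5.47 CPM in control libraries and 8.09, 7.56 and 6.60 CPM after knockdown. In the control libraries the gene pair ran in opposite orders, the first library being the lowest for ABCG5 and the highest for ABCG8. The log2 fold changes were -0.024 (95% interval -0.44 to 0.39) and -0.041 (95% interval -0.54 to 0.46), both within the spread between libraries, and both turned positive with scaling by library totals (0.040 and 0.026).

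Genes that regulate ABC transporters, or that move bile acids and drugs beside them, were read from lists that hold none of the members. Of 14 receptors and factors, 12 were tested, of which 4 fell, 1 rose and 7 were not called, while 15.1% of all tested genes were called. NR1H4, the bile acid receptor FXR, for which ABCB11 and ABCB4 are known targets, had 93.5, 102 and 106 CPM in control libraries and 33.6, 35.7 and 42.5 CPM after knockdown. It fell by 1.43 on the log2 scale (edgeR, adjusted p = 8.71e-04). HNF4A, RXRA and SREBF2 fell by 0.55, 0.48 and 0.26, at adjusted p of 0.00715, 0.0122 and 0.0485 in edgeR, and AHR, a receptor for aromatic compounds, rose by 0.47 (edgeR, adjusted p = 0.0240). NR1I2, the drug receptor PXR, a known regulator of ABCB1, had a log2 fold change of 0.46 that did not pass the test (edgeR, adjusted p = 0.134), and the oxysterol receptors NR1H3 and NR1H2, which regulate ABCA1, ABCG5 and ABCG8, had 0.022 and -0.16.

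Several SLC carriers fell. Of 9 listed SLC carriers of bile acids and drugs, 5 were tested, of which 3 fell, 0 rose and 2 were not called. Over all tested genes 8.07% were called lower. The median log2 fold change of the tested carriers was -0.81, and the difference from the ABC pumps was not tested. SLC22A7, an organic anion carrier, fell by 1.64 (edgeR, adjusted p = 0.00502). SLC51B, a subunit of the basolateral bile acid exporter, had 27.8, 25.2 and 27.2 CPM in control libraries and 14.5, 15.6 and 15.6 CPM after knockdown and fell by 0.81 (edgeR, adjusted p = 0.00174). SLC47A1, a canalicular exporter of organic cations, also fell by 0.81 (edgeR, adjusted p = 0.00129). Of 9 listed partners and lipid acceptors, 8 were tested, and 3 fell, 0 rose and 5 were not called. PDZK1, a scaffold that binds the tail of ABCC2 and other membrane transporters, fell by 0.79 (edgeR, adjusted p = 0.0283). These decreases went with the lower hepatocyte markers given above, whose part in them was not tested.

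**Figure D4:**
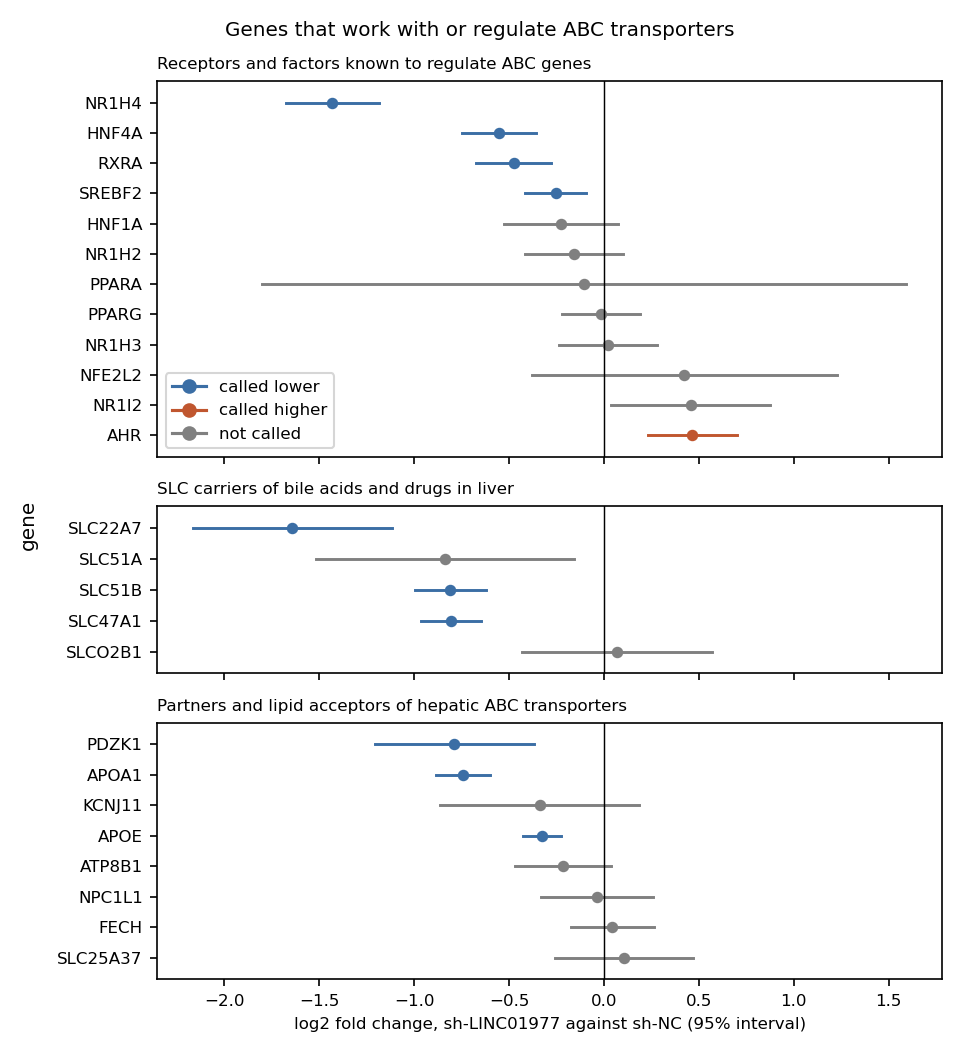
Log2 fold change (sh-LINC01977 against sh-NC, 3 libraries each) with 95% intervals from edgeR for the 12 tested regulators, the 5 tested SLC carriers and the 8 tested partners of ABC transporters. NR1H4 and SLC22A7 have the lowest values, at -1.43 and -1.64, and AHR is the only gene called higher.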

How the data were processed

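HepG2 cells were infected with lentivirus for the control hairpin or the hairpin against LINC01977, and their TRIzol-extracted total RNA was run on an Illumina HiSeq. The submitters' processing notes name HISAT2, StringTie and the build hg38, and the annotation, the counting settings and the use of strand are not given in the sources used here. The authors deposited 1 table with raw counts and FPKM values per gene and library. A count of 4 occurred 8101 times over genes and libraries, against 2780 times for 3 and 1758 times for 5, and counts may therefore not be single fragments.

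The quasi-likelihood test of edgeR 4.0.16 (R 4.3.3) was run on TMM-scaled counts, with Benjamini-Hochberg adjustment over all tested genes, on the 13452 genes with a mean of at least 0.5 FPKM. Members under the filter were read from a fit of all 29153 genes. Called means an adjusted p under 0.05. The 95% intervals come from the standard error of the fit. Alternatives were edgeR with RLE or library-total scaling, no filter or a filter at 1 FPKM, DESeq2 1.42.0, limma 3.58.1 on log2(FPKM + 0.1) or log2(FPKM + 1), a replicate block, counts divided by 4, and leaving out each library. The fit was tested on simulated data with far fewer changed genes than were called here. Shares called in the simulation therefore do not carry over to this comparison. The fit returned the given folds in the median, which was required for the analysis to go on. It called most genes at the larger of the folds given and very few at the smaller. The smaller fold was above the folds of the members called lower here. The named members are those called, the 5 of highest mean FPKM, the hepatic efflux pumps, the member nearest to the threshold, and those at 0 in a group, and the roles were assigned by hand. ABCA3, ABCA5, ABCA7, ABCB8, ABCC5, ABCC11, ABCC10 and the copies and neighbours of members were named after their values were seen. The members and gene lists were chosen with earlier results of these data known. Values of some single genes in the lists and among the members are not reported here, although counts and medians over members include them. Of 31 members, 23 had a promoter window in the RefSeq table.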

Additional observations from a re-analysis of the deposited data

How the results depend on the processing

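ABCC6 was called lower in all 15 alternatives, with log2 fold changes from -0.35 to -0.22. The number of members called lower, 3, was 1 with library totals, 1 with limma on log2(FPKM + 0.1) and 1 with limma on log2(FPKM + 1), and between 1 and 2 with a library left out, where fewer samples were fitted. The number called higher, 1, was 0 with a filter at 1 FPKM, which leaves ABCA4 out, and between 0 and 1 with a library left out. The number of all genes called, 2033, was between 1176 and 1398 with a library left out. The median of the members, -0.0022, was 0.064 with library totals, 0.063 with limma on log2(FPKM + 0.1) and 0.060 with log2(FPKM + 1), where the median of all genes moved to 0.065, 0.063 and 0.049, and between -0.049 and 0.022 with a library left out. Same-numbered libraries of the groups did not clearly deviate together (correlations -0.032, 0.011 and 0.056). With 3 libraries per group these values cannot tell whether the numbers mark a pairing. With the replicate block 1 member was called higher and 2 lower, since ABCB10 had an adjusted p of 0.0622 from edgeR, 1390 genes were called in all, and ABCA4, at 1.02 on the log2 scale, passed the fold threshold of the study.

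Small values changed sign, and none of these was called. ABCC2 was 0.064 with library totals, 0.0053 with a filter at 1 FPKM, and 0.061 and 0.060 with limma at the lower and higher pseudocount. ABCG5 was 0.040, 0.063 and 0.046 with library totals and the same limma fits and 0.00023 with the block, and ABCG8 was 0.026, 0.048 and 0.029 with library totals and limma. ABCG2 was -0.0010 without a filter. With a library left out, the ranges were -0.049 to 0.022 for ABCC2, -0.20 to 0.10 for ABCG5, -0.23 to 0.13 for ABCG8, -0.025 to 0.036 for ABCG2, -0.066 to 0.083 for ABCB1, -0.044 to 0.16 for ABCC1 and -0.038 to 0.11 for ABCC3. The causes of these sign changes were not tested. LINC01977 had a negative value in every alternative that gave it one, but all of them rest on the same few counts. In the edgeR fit of all listed genes its 95% interval was from -6.70 to 2.45, so its direction cannot be told from these data.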

Other observations

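The ABC genes outside the compared subfamilies were read from a separate list. Of its 11 genes, 9 were tested, of which 1 rose, 1 fell and 7 were not called, while 15.1% of all tested genes were called. In this list ABCD3, a peroxisomal importer of fatty acids, rose by 0.24 on the log2 scale (edgeR, adjusted p = 0.0297), with 133, 127 and 137 CPM in control libraries and 148, 160 and 161 CPM after knockdown. ABCD4, ABCE1, the ABCF genes of translation and the peptide transporters TAP1 and TAP2 did not pass the test. ABCA2 and ABCB9, left out of the compared set, stood at 0.25 and 0.32 on the log2 scale (edgeR, adjusted p = 0.308 and 0.215).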
